A study of Mus musculus with 11 samples.

Results

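The Rab GTPases are described here as all 52 genes of the raw count table that have a Rab symbol followed by a number and at least 1 count, out of 16934 genes in the table and 14106 with a count. Another 4 Rab genes, Rab30, Rab40b, Rab44 and Rab9b, had no count in any library. The choice used symbols and total counts. Rab effectors, exchange factors and other proteins that act on Rabs are treated separately below.

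Rab proteins are small GTPases that mark the membranes of vesicles and organelles. In the GTP-bound state a Rab sits on its membrane by a lipid anchor and recruits effectors such as tethers and motor adaptors. Guanine nucleotide exchange factors (GEFs) switch a Rab on, and GTPase-activating proteins (GAPs) switch it off. In phagocytes such as microglia, Rabs guide engulfed material from the phagosome and early endosome to the lysosome, return receptors to the surface and drive secretion.

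The 11 libraries came from primary microglia of newborn C57BL/6 mice (pups at 0 to 3 days), unpassaged and grown for 7 to 10 days in DMEM with 10% fetal calf serum and 1% penicillin/streptomycin, in a study whose title concerns tunneling nanotubes. For 4 libraries the microglia were cultured alone, and for 3 they were co-cultured during 6 h with primary cortical neurons at 14 days in vitro that had been left untreated. The remaining 4 came from a 6 h co-culture with such neurons after these had received 0.1 µM Atto488-labelled α-synuclein fibrils for 16 h and a PBS wash. No transgene or knockout is named for any group. Nothing in the labels tells how microglia were parted from neurons before RNA extraction, or whether the libraries in a group are separate cultures or animals. The p-values therefore reflect the spread among these samples alone, and that spread may be technical. Libraries are numbered within a group in order of deposition, and values are listed in that order.

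Messenger RNA was read from its 3′ end, and each library held between 8253070 and 16802451 counts. Between 36 and 45 of the 52 Rab genes had at least 1 count in a given library. Levels are CPM, counts per 1000000 counts of a library, on library sizes adjusted by TMM, a scaling that sets most genes level between libraries. Since a 3′ library reads transcripts near their end, CPM were not divided by gene length. Order between genes still depends on how well each 3′ end was captured. Duplicate removal is not given in the sources used here, so several counts may come from 1 captured transcript. A count of 3 corresponded to 0.178 to 0.350 CPM, the limit that a count of 0 allows, for counting error only. Microglia and macrophage marker genes (all 10 of 10 with a count) summed to 12596 to 13955 CPM in microglia alone, 16342 to 19765 beside untreated neurons and 14120 to 20144 beside fibril-loaded ones. Neuron markers (14 of 15 with a count, Snap25 at 0 in every library) summed to 83.9 to 180.1, 1.13 to 30.1 and 8.92 to 46.2 CPM. Members of both sums differed. Cx3cr1 stood at 447 to 813 CPM in microglia alone and at 1204 to 2479 in the co-cultures. Ctss overlapped, at 1219 to 2854 and 1524 to 2216. Dcx stood at 15.9 to 66.5 CPM in microglia alone and at 0 to 6.17 in the co-cultures. Rbfox3 overlapped, at 0 to 13.3 and 0 to 12.4. Oligodendrocyte lineage markers (8 of 8 with a count, led by Mbp) summed to 117 to 190.3 CPM in microglia alone, 218 to 255 and 124 to 245. In this sum the untreated-neuron libraries lay above all those of microglia alone. Its members did not move together. Cspg4 stood at 0 to 37.0 CPM in microglia alone and at 48.1 to 67.7 with untreated neurons. Olig1 leaned the other way, at 14.7 to 38.8 and 6.36 to 20.6 CPM, with overlap. Rn45s, the 45S precursor of ribosomal RNA, took 14.001% to 24.8% of the counts in microglia alone, 10.7% to 15.7% and 10.97% to 17.0%, with overlapping groups. In bulk libraries, fewer cells of a type and less RNA per cell cannot be told apart.

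The Rab genes were unequal in level by orders of magnitude, and a handful carried most of the family. Rab5c, an early endosome Rab, had the highest mean over libraries, at 753 CPM. It was followed by Rab7b at 429.7, Rab14 at 416, Rab10 at 385 and Rab8a at 303 CPM. These 5 genes made up 48.0% of the summed Rab CPM, and the 10 highest made up 68.7%. In microglia alone, 14 members had a mean of at least 100 CPM, 20 lay between 10 and 100, and 18 below 10. The corresponding counts were 15, 20 and 17 with untreated neurons and 14, 22 and 16 with fibril-loaded neurons. Among the low members were Rabs best known from neurons and endocrine cells, such as Rab3a, Rab3b, Rab3c, Rab26, Rab27b and Rab39b.

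**Figure D1:**
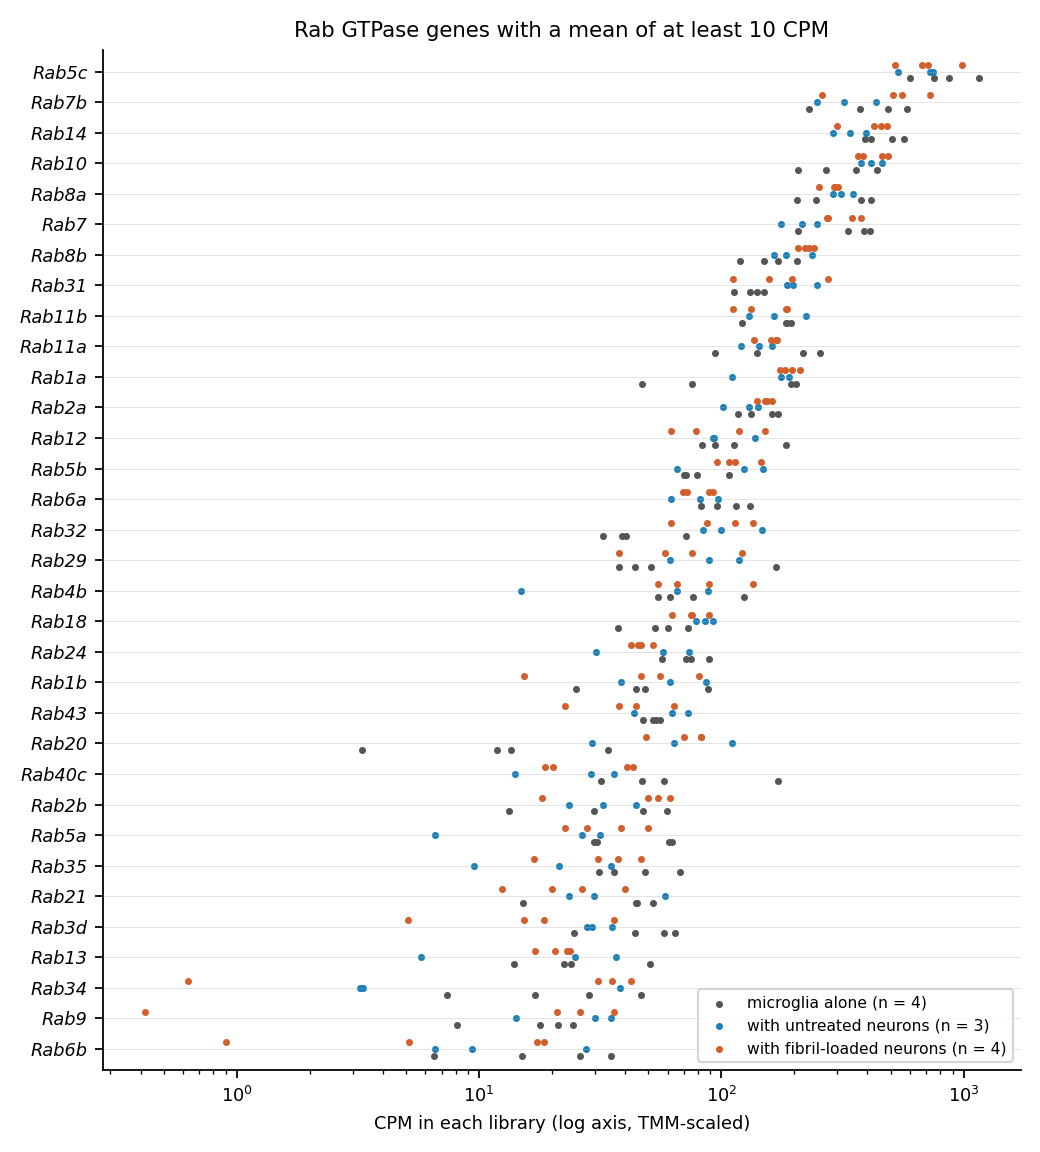
Points give the CPM of each library (log axis) for the 33 Rab genes averaging at least 10 CPM, ordered by mean, with the 3 groups offset and coloured. Rab5c lies between 522 and 1159 CPM at the top, and the spread between libraries widens toward the bottom.

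Summed over the family, Rab CPM came to 4810.4 ± 112.3 in microglia alone (SD, n = 4), 4495 ± 66.7 with untreated neurons (SD, n = 3) and 4925 ± 214.7 with fibril-loaded neurons (SD, n = 4). The untreated-neuron libraries, at 4432 to 4565 CPM, lay below the 4707 to 4951 of microglia alone and the 4642 to 5094 of the fibril group. On CPM of the total count without TMM, the untreated-neuron libraries (4493 to 4719) lay within the range of microglia alone (4133 to 4936), while the fibril libraries (4729 to 5362) stayed above them. On counts divided by the size factor of the authors' normalized table, the untreated-neuron libraries (51568 to 53359) again lay below microglia alone (54624 to 57737). They also lay below the fibril libraries (53846 to 59182). The difference from microglia alone in the family sum was thus seen with TMM and with size factors, but not on the total count. The share of Rn45s in the total count, given above, was highest on average in microglia alone, and its part in this was not tested.

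Spread between libraries limits what the comparisons can show. For the 14 Rab genes averaging at least 100 CPM, the median coefficient of variation within groups was 24.6%, ranging from 13.4% to 36.6%, against 28.7% over all 1591 genes at that level. For 19 members between 10 and 100 CPM it was 45.9%, against 52.5% over 5945 genes. Below 10 CPM the counts of a Rab gene were often present in some libraries of a group and absent from others, and 10 of the 11 members between 1 and 10 CPM had a library at 0, as did 94.9% of all genes there.

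No Rab gene passed the test in any of the 3 comparisons. The test was edgeR's quasi-likelihood test with Benjamini-Hochberg (BH) adjustment over 11276 genes at a threshold of 0.05, and 42 of the 52 members had enough counts to enter it. With untreated neurons against microglia alone, 0 of 42 Rab genes were called higher, where 0.461% of all genes tested were, and 0 lower, where 0.177% were. With fibril-loaded neurons against microglia alone, 0 were called in either direction, where 0.266% of all genes were called higher and 0.0532% lower. Between the co-cultures 0 were called, where 0% of all genes were called higher and 0% lower. Given those shares, no call among 42 genes is close to the background.

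At an unadjusted p below 0.05 the same test gave 2 Rab genes higher (Rab20 and Rab32) and 2 lower (Rab40c and Rab7) with untreated neurons, beside 4.66% and 5.67% of all genes. With fibril-loaded neurons against microglia alone it also gave 2 higher (Rab20 and Rab32) and 2 lower (Rab3d and Rab40c), beside 4.25% and 3.89%. Between the co-cultures it gave 0 Rab genes higher and 0 lower, beside 2.64% and 1.3%. Each 2 of 42 is 4.76%, near the background. DESeq2 called 1 Rab gene in each comparison with microglia alone, Rab20 in both cases, where it called 4.25% and 2.3% of all genes in either direction. It called 0 between the co-cultures, where it called 1.38%. The limma test on the normalized table called 0 Rab genes with untreated neurons, 1 with fibril-loaded neurons and 0 between the co-cultures, beside 0.78%, 0.47% and 0% of all genes.

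Over the 33 Rab genes averaging at least 10 CPM, the median log2 fold change was -0.17 with untreated neurons against microglia alone, with 14 members above 0 and 19 below, beside -0.03 over 7536 genes. With fibril-loaded neurons against microglia alone it was -0.07 (14 above 0 and 19 below), beside -0.02. Between the co-cultures it was 0.02 (18 above and 15 below), beside -0.0013. The distance from the estimate to either end of the 95% interval was taken for the 22 members with at least 50 CPM. Its median was 0.71, 0.66 and 0.71 on the log2 scale in these comparisons. These intervals are not adjusted for the number of genes tested. Larger differences in a single Rab gene could therefore go uncalled, as for Rab32 at 1.27 and 1.12 against microglia alone. Both comparisons with microglia alone share the same 4 control libraries, and values from them are given side by side without reading their likeness.

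**Figure D2:**
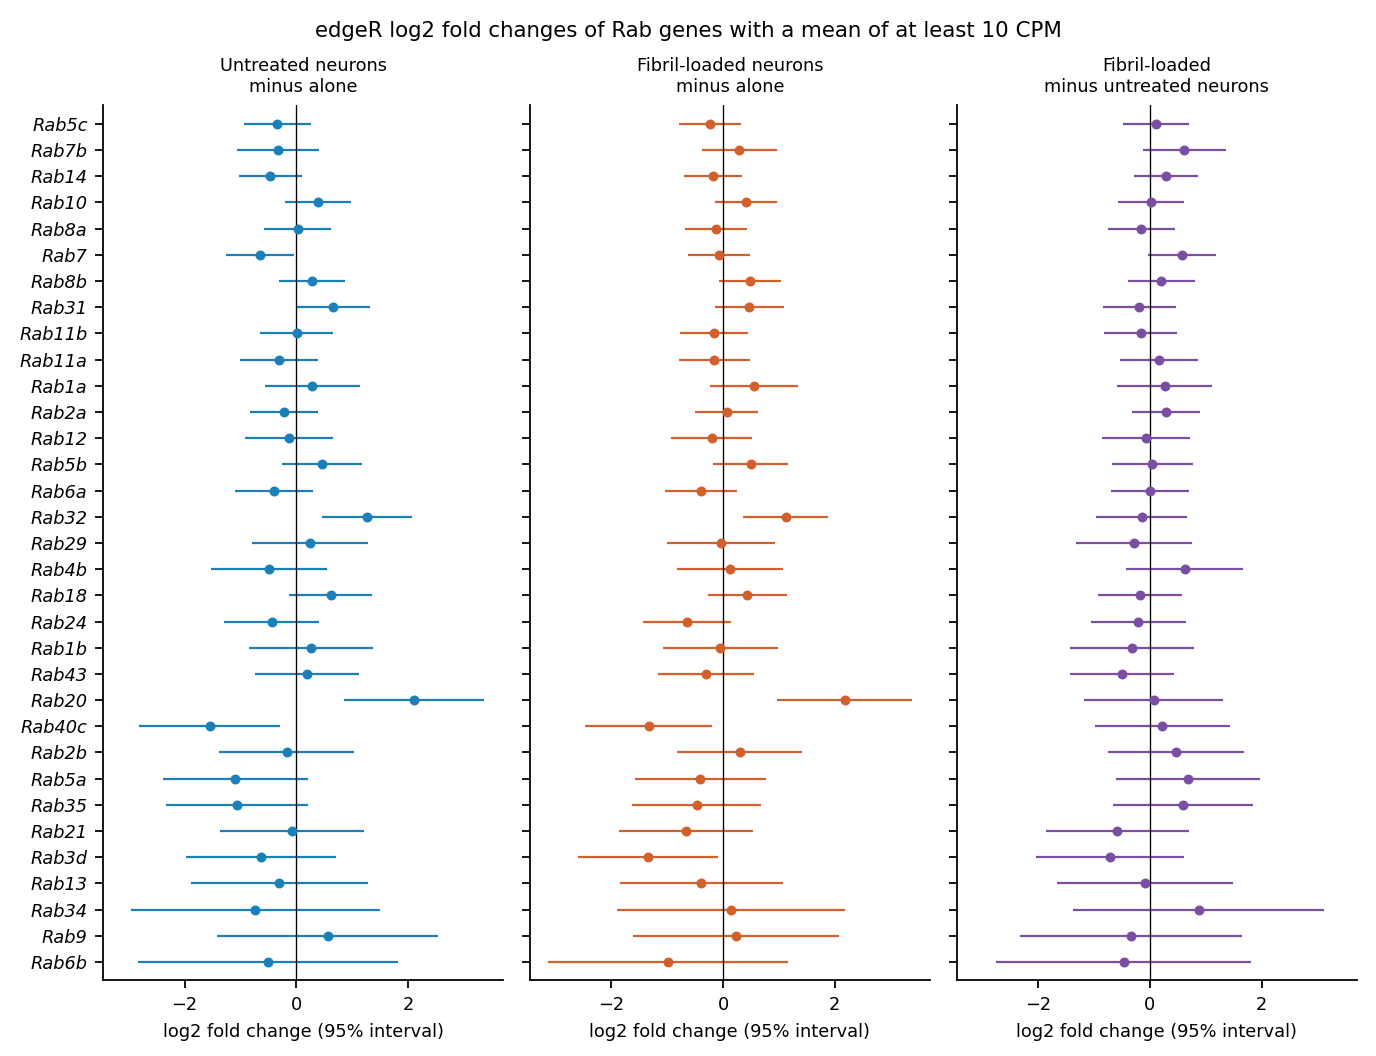
Points give the edgeR log2 fold change and lines its 95% interval for the 33 Rab genes averaging at least 10 CPM, ordered by mean level, in the 3 comparisons. Rab20 and Rab32 lie to the right of 0 in both comparisons with microglia alone and near 0 between the co-cultures, and no member passed the adjusted threshold.

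Among Rabs of late endosomes, lysosomes and phagosomes, Rab20 had the smallest p of the family in both comparisons with microglia alone. Rab20 is known for phagosome maturation in macrophages and for induction by hypoxia. Rab20 stood at 13.5, 3.27, 34.0 and 11.9 CPM in microglia alone, at 63.6, 29.3 and 110.1 with untreated neurons and at 48.9, 70.3, 82.1 and 82.2 with fibril-loaded neurons. All 4 fibril libraries were above every library of microglia alone, and 2 of the 3 untreated-neuron libraries were, while the second of that group, at 29.3 CPM, lay below the 34.0 of the highest control. Its mean was 15.7 ± 13.0 CPM in microglia alone (SD, n = 4), 67.7 ± 40.6 with untreated neurons (SD, n = 3) and 70.9 ± 15.7 with fibril-loaded neurons (SD, n = 4). By edgeR's quasi-likelihood test the log2 fold change against microglia alone was 2.11 (SE 0.60, 95% interval 0.85 to 3.36) with untreated neurons, with BH-adjusted p = 0.143 (unadjusted 0.00216, rank 170 of 11276). With fibril-loaded neurons it was 2.18 (SE 0.58, 95% interval 0.97 to 3.38), with BH-adjusted p = 0.141 (unadjusted 0.00115, rank 89). Neither passed. Between the co-cultures it was 0.07 (95% interval -1.18 to 1.31), with adjusted p = 1, an interval too wide to show equal levels.

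Whether Rab20 passed depended on the settings. DESeq2 gave adjusted p = 0.0386 for untreated and 0.0262 for fibril-loaded neurons, and edgeR without a low-count filter gave 0.00880 and 0.00427. Without that filter edgeR called 1, 1 and 0 Rab genes in the 3 comparisons, beside 1.66%, 1.16% and 0.0354% of all genes. Without the third library of microglia alone, the highest control, edgeR gave adjusted p = 0.0358 and 0.0298. Leaving out any other library kept it above the threshold, with adjusted p of up to 0.555 and 0.343. In the same libraries the neuron marker sum was lower in every co-culture library than in any library of microglia alone. The microglia and macrophage marker sum was higher. Not all members of these sums separated the groups, and Rbfox3 and Ctss overlapped. The oligodendrocyte lineage sum, though not its member Olig1, was higher in every untreated-neuron library than in any of microglia alone. The mean share of Rn45s was lower in both co-cultures. The part of these in the Rab20 values was not tested. The gene spans 11453390 to 11478640 on the reverse strand of chromosome 8 (GRCm38.p6, which shares its coordinates with mm10), and E230013L22Rik, with 0 to 58 counts per library, overlaps its exons on the other strand. Use of strand in counting is not given in the sources used here, so reads of the pair cannot be told apart.

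Rab7, which directs fusion of late endosomes with lysosomes, had its lowest mean with untreated neurons. Rab7 stood at 387, 206, 333 and 412 CPM in microglia alone, at 176, 248 and 215 with untreated neurons and at 273, 375, 346 and 276 with fibril-loaded neurons. The 3 untreated-neuron libraries were below every fibril library, while the second library of microglia alone fell among them. For Rab7 the log2 fold change was -0.65 (95% interval -1.26 to -0.04) with untreated neurons (edgeR, BH-adjusted p = 0.447), -0.07 (95% interval -0.63 to 0.49) with fibril-loaded neurons and 0.58 (95% interval -0.03 to 1.19) between the co-cultures (edgeR, BH-adjusted p = 1). The last was the smallest p of the family in that comparison, unadjusted 0.0627.

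Rab7b stood at 374, 487, 582 and 231 CPM in microglia alone, at 248, 437 and 319 with untreated neurons and at 556, 509.7, 259 and 724 with fibril-loaded neurons. Rab7b, which acts between late endosomes and the Golgi and is known for restraint of Toll-like receptor signalling in macrophages, spread about as widely within groups as between them. For Rab7b the log2 fold change was -0.32, 0.29 and 0.61 in the 3 comparisons, with edgeR adjusted p of 0.930, 1 and 1. Rab7b supplied between 35.9% and 72.4% of the CPM of Rab7 and Rab7b together, with the groups overlapping. Rab39b, of which loss causes an inherited parkinsonism, was too low to be tested, with 5.84 CPM in the fourth fibril library, at most 0.0896 in any other and 0 in 8 of the 11. Of the 8 members of this class that were tested, 3 had a log2 fold change above 0 with untreated neurons and 5 with fibril-loaded neurons.

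Of the Rabs of lysosome-related organelles, Rab32 had the second smallest p of the family in both comparisons with microglia alone. It is known for melanosome formation and for binding the kinase LRRK2. Rab32 stood at 32.3, 39.0, 71.4 and 40.3 CPM in microglia alone, at 99.2, 84.0 and 147 with untreated neurons and at 87.2, 61.8, 113 and 135 with fibril-loaded neurons. Every untreated-neuron library was above every library of microglia alone, and 3 of the 4 fibril libraries were. The log2 fold change was 1.27 (SE 0.39, 95% interval 0.46 to 2.08) with untreated neurons and 1.12 (SE 0.37, 95% interval 0.36 to 1.88) with fibril-loaded neurons, with edgeR BH-adjusted p of 0.185 and 0.306, and neither passed. Between the co-cultures it was -0.15 (95% interval -0.96 to 0.66). Rab32 spans 10545039 to 10558207 on the reverse strand of chromosome 10, and no antisense exon overlaps it. The marker sums and Rn45s share given beside Rab20 differ between the same groups, and their part here was not tested either.

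Rab29, a close relative that recruits LRRK2 to lysosomes and lies in a Parkinson's disease risk region, overlapped between all groups. Rab29 stood at 51.4, 37.7, 44.1 and 168 CPM in microglia alone, at 118, 88.7 and 61.6 with untreated neurons and at 75.4, 58.4, 122 and 37.7 with fibril-loaded neurons. The fourth library of microglia alone was far above the others of its group, which lay below every untreated-neuron library and overlapped the fibril group. The log2 fold change of Rab29 was 0.25 (95% interval -0.79 to 1.29), -0.04 (95% interval -1.01 to 0.93) and -0.29 (95% interval -1.33 to 0.75). With 1 library left out, it ran from -0.0068 to 1.01 with untreated neurons against microglia alone. With fibril-loaded neurons against microglia alone it ran from -0.40 to 0.72. Rab38, the third of this class, was at or near 0 throughout. Rab32 made up 19.3% to 78.1% of the CPM of Rab29, Rab32 and Rab38, and its mean share was 42.5% in microglia alone, 54.9% beside untreated and 57.9% beside fibril-loaded neurons, with overlapping libraries. Rab29 and Rab7b are neighbours on chromosome 1, separated by 151766 bases.

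**Figure D3:**
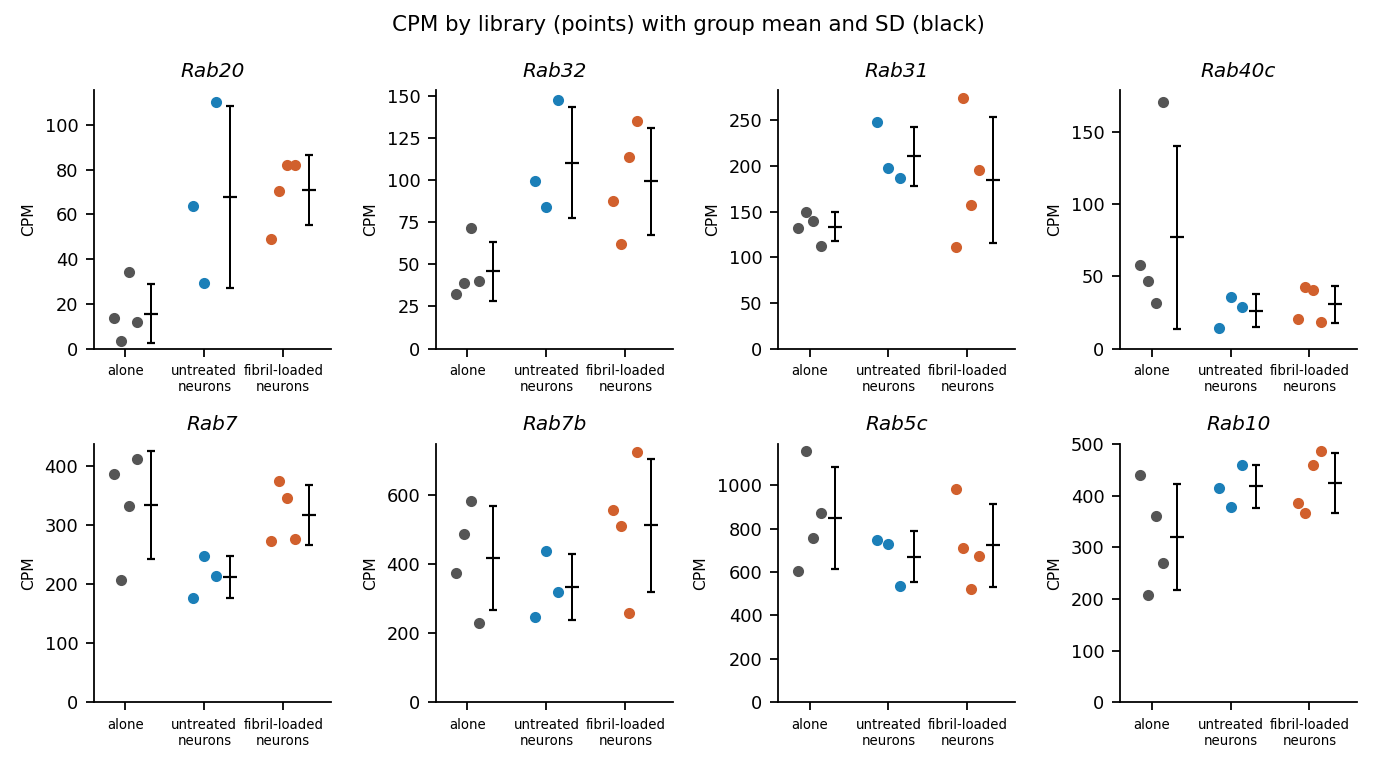
Points give the CPM of each library on axes that start at 0, with the group mean and SD in black, for 8 Rab genes. Rab20 and Rab32 sit low in microglia alone, Rab40c is high in 1 library of microglia alone (171 CPM), and Rab7 is lowest with untreated neurons.

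The 250 bases upstream of the transcript starts are shown for the 3 Rab genes with the smallest p against microglia alone, from RefSeq on GRCm38.p6, 5′ to 3′ on the gene's strand, with searched motifs in capitals.
Rab20, chr8:11478641-11478890, reverse strand: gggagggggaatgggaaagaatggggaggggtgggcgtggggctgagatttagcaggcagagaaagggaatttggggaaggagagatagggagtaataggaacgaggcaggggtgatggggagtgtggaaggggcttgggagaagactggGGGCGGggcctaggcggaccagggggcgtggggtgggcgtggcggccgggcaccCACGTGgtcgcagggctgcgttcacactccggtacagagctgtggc
Rab32, chr10:10558208-10558457, reverse strand: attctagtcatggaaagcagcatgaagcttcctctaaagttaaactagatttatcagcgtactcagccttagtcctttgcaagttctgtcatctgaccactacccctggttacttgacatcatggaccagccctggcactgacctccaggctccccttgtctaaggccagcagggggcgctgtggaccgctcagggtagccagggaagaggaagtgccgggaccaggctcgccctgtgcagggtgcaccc
Rab40c, chr17:25919715-25919964, reverse strand: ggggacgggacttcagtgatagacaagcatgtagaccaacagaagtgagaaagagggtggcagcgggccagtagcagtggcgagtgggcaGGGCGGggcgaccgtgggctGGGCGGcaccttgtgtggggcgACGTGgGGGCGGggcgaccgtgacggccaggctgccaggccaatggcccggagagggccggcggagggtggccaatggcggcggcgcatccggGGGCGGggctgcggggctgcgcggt
The motifs searched on both strands were the E-box CACGTG, known from the lysosomal CLEAR element, the hypoxia factor core ACGTG, which every CACGTG also contains, the GC box GGGCGG, the TATA box TATAAA, the AP-1 site TGACTCA and the NF-kB site by name. Rab20 held CACGTG from 46 to 41 bases before its start and GGGCGG from 100 to 95 bases before it. Rab40c held ACGTG from 118 to 114 bases before its start and 4 copies of GGGCGG. None of these letters occurred in the Rab32 window.

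Of the 52 Rab genes, 44 had 1 or more promoters in the RefSeq table, 56 in all. CACGTG occurred in 5 of the 56, or 8.93%, beside 6.02% of all 32851 promoters, and ACGTG in 9, or 16.1%, beside 16.6%. GGGCGG occurred in 38, or 67.9%, beside 32.7%. TATAAA occurred in 4, or 7.14%, beside 12.4%, TGACTCA in 2 (3.57% beside 4.46%) and the NF-kB site in 3 (5.36% beside 7.25%). The promoters of all genes were not matched to those of the Rab genes in gene class or base content. For 44 of the 56, the first 20 transcribed bases were found near the start of a GENCODE transcript of the gene. A match is a description of the letters, and its use was not measured.

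The early endosome class was carried by Rab5c. The Rab5 proteins drive fusion of endocytic vesicles with early endosomes. Rab5c stood at 603, 1159, 757 and 870.1 CPM in microglia alone, at 747, 728 and 535 with untreated neurons and at 981, 712, 522 and 674 with fibril-loaded neurons. The groups overlapped, with the highest library in microglia alone. For Rab5c the log2 fold change was -0.34 (95% interval -0.94 to 0.26) with untreated neurons, -0.23 (95% interval -0.78 to 0.32) with fibril-loaded neurons and 0.11 (95% interval -0.49 to 0.71) between the co-cultures. Rab5c made up between 78.0% and 92.0% of the CPM of the 3 Rab5 genes in every library. Rab5b stood at 70.4, 71.4, 107 and 79.3 CPM in microglia alone, at 149, 65.5 and 124 with untreated neurons and at 114, 95.8, 107 and 146 with fibril-loaded neurons. Rab5a stood at 62.4, 29.8, 30.6 and 60.9 CPM in microglia alone, at 6.59, 31.6 and 26.5 with untreated neurons and at 22.6, 49.7, 27.9 and 38.4 with fibril-loaded neurons. Both overlapped between groups, with log2 fold changes of 0.46 and 0.50 against microglia alone for Rab5b and -1.09 and -0.41 for Rab5a. Pp2d1 overlaps exons of Rab5a on the other strand, with 0 to 113 counts per library.

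Rab31 and Rab22a, related regulators of traffic between endosomes and the Golgi, are named after their values were seen because their groups did not overlap in a comparison. Rab31 stood at 132, 149.8, 139.8 and 112 CPM in microglia alone, at 247, 197 and 187 with untreated neurons and at 112, 275, 157 and 195 with fibril-loaded neurons. All 3 untreated-neuron libraries were above those of microglia alone, while the fibril libraries spanned both groups. Its log2 fold change with untreated neurons was 0.66 (SE 0.32, 95% interval -0.0014 to 1.31), with edgeR BH-adjusted p = 0.483. The oligodendrocyte lineage marker sum, though not its member Olig1, is likewise higher in all untreated-neuron libraries than in microglia alone. The part of that sum in the Rab31 values was not tested. Rab31 supplied 78.9% to 100% of the CPM of this pair. Rab22a ran from 0 to 6.22 CPM with untreated neurons and from 7.24 to 29.8 in the fibril group, and from 0.0783 to 18.9 in microglia alone.

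**Figure D4:**
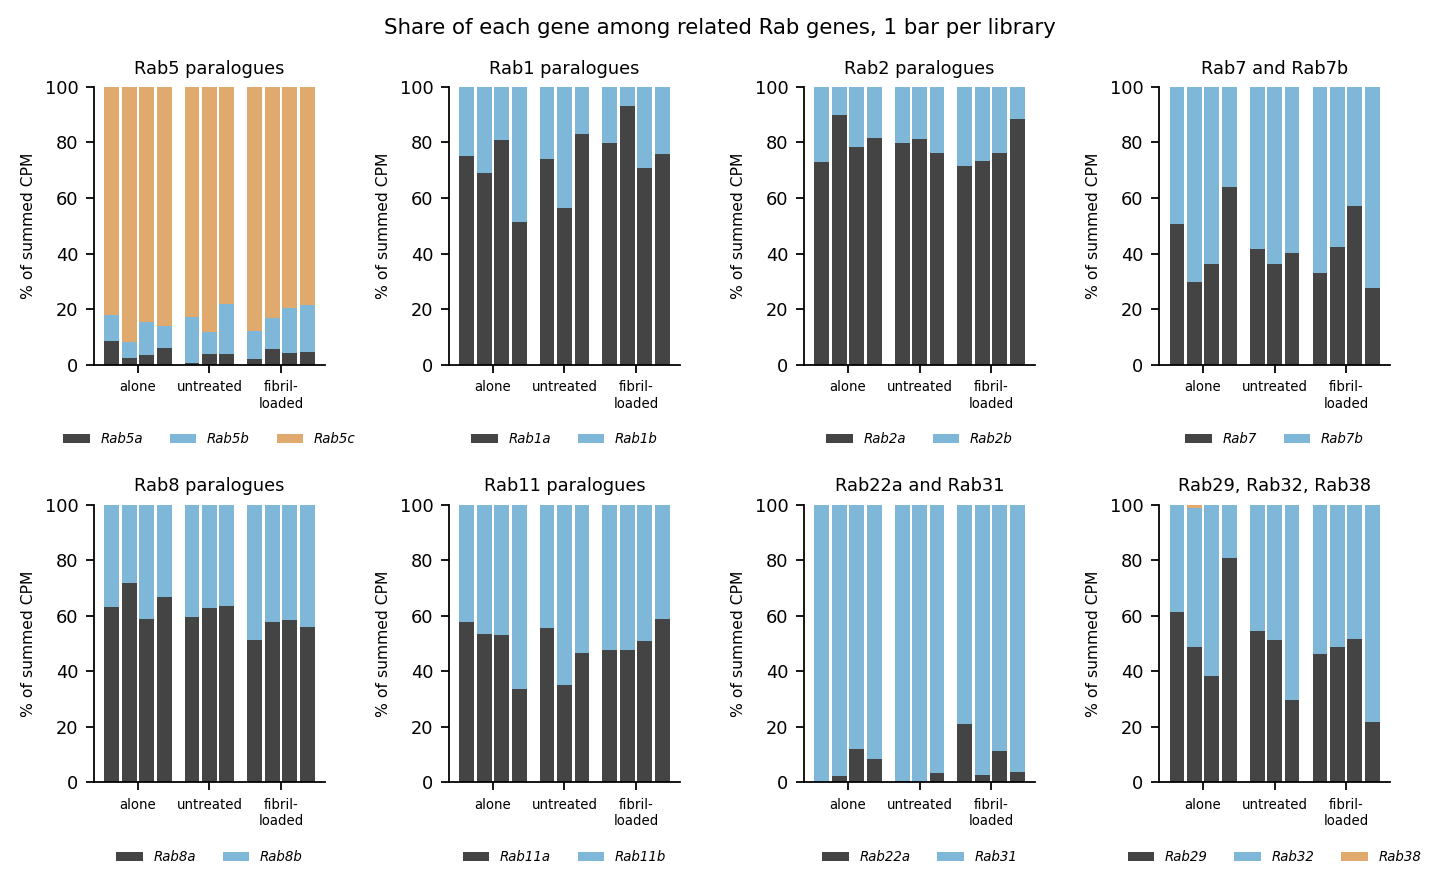
Each bar is 1 library and shows the percent of summed CPM that each gene supplied within a set of related Rab genes, for 8 sets. Rab5c supplies at least 78.0% of the Rab5 set in every library, Rab31 at least 78.9% of its pair, and Rab7 and Rab7b take turns as the larger share among libraries of microglia alone and of the fibril group.

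Recycling and exocytic Rabs held 4 of the 7 most abundant members and none of the class passed in any comparison. Rab14 acts between the Golgi, early endosomes and phagosomes. Rab14 stood at 568, 393, 414 and 508 CPM in microglia alone, at 289, 340.2 and 395 with untreated neurons and at 300.0, 483, 455 and 428 with fibril-loaded neurons. Rab10 stood at 441, 208, 360.5 and 269 CPM in microglia alone, at 416, 378 and 460.4 with untreated neurons and at 385, 366, 459 and 487 with fibril-loaded neurons. Rab10, like Rab8a, acts in exocytosis and is a substrate of LRRK2, and its 2 lowest libraries were both of microglia alone. Rab8a stood at 205, 379, 245 and 416 CPM in microglia alone, at 351, 312 and 289 with untreated neurons and at 252, 302, 293 and 292 with fibril-loaded neurons. The 3 genes overlapped between all groups. Their log2 fold changes with untreated neurons were -0.46 (95% interval -1.03 to 0.11) for Rab14, 0.39 (95% interval -0.20 to 0.98) for Rab10 and 0.03 (95% interval -0.57 to 0.63) for Rab8a. With fibril-loaded neurons they were -0.18 (95% interval -0.70 to 0.35), 0.41 (95% interval -0.14 to 0.96) and -0.13 (95% interval -0.68 to 0.43) in that order. Between the co-cultures they were 0.29 (95% interval -0.28 to 0.85), 0.02 (95% interval -0.57 to 0.61) and -0.16 (95% interval -0.75 to 0.44).

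Rab8b, the close copy of Rab8a and also named after its values were seen, made up 28.4% to 41.0% of the CPM of the pair in microglia alone, 36.4% to 40.3% with untreated neurons and 41.5% to 48.9% with fibril-loaded neurons. The fibril libraries thus lay above the other groups in this share, though the nearest libraries of microglia alone and the fibril group were close. Rab8b stood at 119.5, 149.9, 171 and 206 CPM in microglia alone, at 237, 185 and 166 with untreated neurons and at 241, 222, 208 and 229.7 with fibril-loaded neurons. Its log2 fold change with fibril-loaded neurons against microglia alone was 0.48 (SE 0.27, 95% interval -0.08 to 1.04), with edgeR BH-adjusted p = 0.748. Rab11a and Rab11b mark the recycling endosome. Rab11a averaged 176 ± 72.9 CPM in microglia alone (SD, n = 4), 142 ± 20.9 with untreated neurons (SD, n = 3) and 158 ± 15.1 with fibril-loaded neurons (SD, n = 4), and Rab11b averaged 172 ± 33.3 CPM in microglia alone (SD, n = 4), 172 ± 47.0 with untreated neurons (SD, n = 3) and 154 ± 37.5 with fibril-loaded neurons (SD, n = 4). Rab11a supplied 33.6% to 58.8% of the pair, and the log2 fold changes of both lay between -0.31 and 0.16. Rab35 stood at 31.2, 35.9, 67.6 and 48.5 CPM in microglia alone, at 9.49, 35.0 and 21.3 with untreated neurons and at 16.8, 30.9, 37.5 and 46.4 with fibril-loaded neurons. Rab35, which returns cargo rapidly from endosomes, overlapped between groups and had log2 fold changes of -1.06 (95% interval -2.34 to 0.21), -0.48 (95% interval -1.62 to 0.67) and 0.59 (95% interval -0.67 to 1.84).

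Rabs of the endoplasmic reticulum and Golgi were represented by Rab1a, which moves cargo from one to the other. Rab1a stood at 75.5, 194, 204 and 46.8 CPM in microglia alone, at 175, 111 and 190.3 with untreated neurons and at 182, 212, 195 and 174 with fibril-loaded neurons. Its 2 lowest libraries were of microglia alone, whose other 2 libraries were among its highest. The log2 fold change was 0.29 (95% interval -0.56 to 1.13) with untreated and 0.55 (95% interval -0.23 to 1.34) with fibril-loaded neurons. Rab1a made up 51.3% to 93.3% of Rab1a and Rab1b together, and Rab2a made up 71.5% to 89.8% of the Rab2 pair. Rab6b, the neuron-enriched copy of the Golgi Rab6a, averaged 20.7 ± 12.5 CPM in microglia alone (SD, n = 4), 14.5 ± 11.5 with untreated neurons (SD, n = 3) and 10.5 ± 8.78 with fibril-loaded neurons (SD, n = 4). Of the 9 members of this class that were tested, 5 had a log2 fold change above 0 in each of the 3 comparisons, and none passed.

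Secretory Rabs other than Rab3d were low. Rab27a, needed for secretion of lysosome-related granules and exosomes, ran from 0 to 20.3 CPM over the 11 libraries. Rab3a, the synaptic vesicle Rab, had 7.64 CPM in the second library of microglia alone, 23.6 in the third fibril library, 2.46 in the fourth and less than 1 in all others, with 0 in 6. Rab3b, its relative, was above 0 in 3 of the 11 libraries, at 3.07 and 7.78 CPM in microglia alone and 5.72 with fibril-loaded neurons, and was at 0 in all 3 untreated-neuron libraries. The presence of Rab3a and Rab3b was thus scattered over single libraries, and no fold change is given for them. Mpv17l2, with 196 to 1162 counts per library, overlaps exons of Rab3a on the other strand. Rab3d, a secretory granule Rab also named after its values were seen, supplied at least 80.2% of the CPM of the 4 Rab3 genes in each library except the third fibril library, where it supplied 44%.

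Rab40c, which acts as part of a ubiquitin ligase, had the third smallest p in both comparisons with microglia alone, in the direction opposite to Rab20. Rab40c stood at 58.0, 47.2, 31.8 and 171 CPM in microglia alone, at 14.03, 36.0 and 28.9 with untreated neurons and at 20.2, 43.0, 40.6 and 18.8 with fibril-loaded neurons. The fourth library of microglia alone was above every other library, and the other 3 overlapped with the co-cultures. Its log2 fold change was -1.55 (95% interval -2.81 to -0.29) with untreated and -1.33 (95% interval -2.47 to -0.20) with fibril-loaded neurons, with edgeR BH-adjusted p of 0.388 and 0.528. Without that library the values were -0.80 and -0.58. Rab40c spans 25882114 to 25919714 on the reverse strand of chromosome 17.

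Groups of libraries whose CPM ranges did not overlap were counted as a second description, and the genes so found are named after their values were seen. With untreated neurons against microglia alone, 3 of 42 Rab genes (Rab18, Rab31 and Rab32) lay wholly above and 0 below, where 4.9% and 5.45% of all genes tested did. With fibril-loaded neurons against microglia alone, Rab20 and Rab8b lay above and Rab24 below, where 2.7% and 2.92% did. Between the co-cultures, Rab22a and Rab7 lay above and 0 below with fibril-loaded neurons, where 2.39% and 2.3% did. Counts of 0 to 3 in 42 are near these shares. For Rab24, Prelid1 overlaps exons on the other strand with 939 to 3601 counts per library. All 52 Rab genes are protein coding, 15 have an antisense gene over an exon, and Rab4b and Rab43 share 98.7% and 49.1% of the 50-base words of their last 500 transcript bases with an overlapping gene model, so the values of these are uncertain.

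Genes that act on Rabs gave the same absence of calls. The lists held 124 effectors, GEFs, GAPs, prenylation and extraction factors, kinases and phosphatases, of which 118 had a count and 105 were tested. Of these, edgeR called 0 in each comparison, where 0.639%, 0.319% and 0% of all genes were called in either direction. At an unadjusted p below 0.05, 1 was higher and 7 lower with untreated neurons, 1 higher and 5 lower with fibril-loaded neurons, and 2 higher and 0 lower between the co-cultures. Over all genes these shares were 4.66% higher and 5.67% lower, 4.25% and 3.89%, and 2.64% and 1.3%. The 7 and 5 lower of 105 are thus near the background. The 1 higher in each comparison with microglia alone is below it. DESeq2 called 2, 2 and 1 of them, beside 4.25%, 2.3% and 1.38% of all genes. The median log2 fold change of the 83 with at least 10 CPM was -0.25, -0.19 and -0.02 in the 3 comparisons. Over all genes at that level it was -0.03, -0.02 and -0.0013.

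The smallest p values of these lists belonged to the effectors Rilpl2 and Eea1. Rilpl2 binds Rab8a and Rab10 once LRRK2 has phosphorylated them. Rilpl2 stood at 62.3, 56.4, 56.2 and 74.8 CPM in microglia alone, at 84.9, 107 and 272 with untreated neurons and at 131, 113, 274 and 209 with fibril-loaded neurons. Every co-culture library was above every library of microglia alone. Its log2 fold change was 1.31 (SE 0.40, 95% interval 0.49 to 2.13) with untreated neurons and 1.54 (SE 0.38, 95% interval 0.76 to 2.32) with fibril-loaded neurons, with edgeR BH-adjusted p of 0.173 and 0.101. Eea1 stood at 236, 288, 246 and 304 CPM in microglia alone, at 80.3, 134 and 173 with untreated neurons and at 248, 152, 171 and 183 with fibril-loaded neurons. Eea1 is the early endosome tether that Rab5 recruits, and its untreated-neuron libraries were all below microglia alone. The log2 fold change was -1.06 (SE 0.32, 95% interval -1.72 to -0.39) with untreated neurons (edgeR, BH-adjusted p = 0.171) and -0.51 (95% interval -1.11 to 0.09) with fibril-loaded neurons. Neither gene passed. Lrrk2 itself, named after its values were seen, had 0.620 and 4.10 CPM in the third and the fourth library of microglia alone and 0 in all 9 others.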

How the data were processed

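Primary mouse microglia were profiled by 3′ mRNA sequencing (QuantSeq FWD kit, per the labels' protocols) in 11 libraries. The authors deposited raw counts per gene symbol. STAR, Partek and DESeq2 are listed in the submitters' processing notes, with mm10 as the build. Versions, duplicate removal and use of strand in counting are not given in the sources used here. A normalized table deposited by the authors was treated as a score. Tested on the values, between 99.8% and 100% of them in a library lay within 0.51 of the count divided by 1 size factor.

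Counts were fitted in R 4.3.3 with edgeR 4.0.16: filterByExpr by group, TMM scaling and the two-sided quasi-likelihood test, with group as its single term over all 11 libraries and Benjamini-Hochberg adjustment over 11276 genes at 0.05. The 10 Rab genes that did not pass the filter (Rab15, Rab19, Rab26, Rab27b, Rab33a, Rab36, Rab38, Rab39b, Rab3c and Rab42) were described only. Standard errors were approximated as the absolute log2 fold change divided by the square root of edgeR's F statistic. Intervals of fold changes come from these and the t distribution. The code was tested on simulated data. Alternatives were RLE scaling, total counts without TMM, no low-count filter, a mean of at least 5 CPM, DESeq2 1.42.0, limma 3.58.1 on log2 of the normalized table with a pseudocount of 1, the 2 groups compared only, leaving out libraries, and a replicate block added after seeing the data.

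The members and lists were chosen with earlier results of these data known. Named Rab genes were the 5 highest in mean CPM, the 3 smallest p values of each comparison and a set of Rab1a, Rab3a, Rab5a, Rab5b, Rab5c, Rab6b, Rab7, Rab8a, Rab10, Rab11a, Rab11b, Rab14, Rab20, Rab27a, Rab29, Rab32, Rab35 and Rab39b. Of the lists of genes acting on Rabs, the 2 with the smallest p were named. Astrocyte markers summed to 20.7 to 110.0 CPM over the 11 libraries, fibroblast and mural markers to 0 to 23.4, endothelial markers to 4.50 to 112.8 and neutrophil and monocyte markers to 0 to 13.3. Symbols were matched to RefSeq (GRCm38.p6), and all 52 Rab genes matched. Overlaps and shared words come from GENCODE.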

Additional observations from a re-analysis of the deposited data

Results flagged for a closer look

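Within groups of 4 libraries, 44 sets of values (21 named Rab genes and the Rab sum, in 2 groups) were examined for 1 library far from the others, and 7 had one, where chance gives about 1 in 20. In microglia alone, Rab29 was at 168 CPM in the fourth library and at 37.7 to 51.4 in the others. Rab11b was at 122 CPM in the second library of microglia alone and at 185 to 193 in the others. Rab3a was at 7.64 CPM in the second library of microglia alone, with at most 0.920 in the others, and at 23.6 CPM in the third fibril library, with at most 2.46 in the others. Rab3b was at 5.72 CPM in the second fibril library and at 0 in the other 3. Rab39b was at 0.0783 CPM, a single count, in the first library of microglia alone and at 5.84 CPM in the fourth fibril library, with 0 in the others of each group. Of the 7, 5 thus concern genes with most libraries at or near 0. The Rab11b and Rab29 values touch no call, since neither gene passed in any comparison.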

How the results depend on the processing

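With no Rab gene called by the main test, 1 (Rab20) was called with each kind of neuron against microglia alone without a low-count filter and by DESeq2, and 1 for the fibril group by limma on the normalized table. Leaving out 1 library at a time gave 0 to 1 in both comparisons with microglia alone, the 1 being Rab20 without the third library of microglia alone, and 0 between the co-cultures. Genes acting on Rabs gave 1 call (Rilpl2) in both comparisons with microglia alone without a filter, and by DESeq2 2 in both and 1 between the co-cultures, against 0. Over all genes, the 72 calls with untreated neurons against microglia alone became 234 without a filter, 47 at a mean of at least 5 CPM, 491 by DESeq2, 41 with the 2 groups only and 29 without the library with the fewest genes in each group, which is the first of each group. Leaving out 1 library gave 32 to 76, with 32, 36 and 41 without libraries 1, 2 and 4 of microglia alone and 46 and 37 without untreated-neuron libraries 1 and 3. For fibril-loaded neurons against microglia alone, 36 calls became 164 without a filter and 262 by DESeq2, and 23 to 42 with 1 library left out (23 without the second library of microglia alone). Between the co-cultures edgeR called 0 genes, with 298 higher and 147 lower at an unadjusted p below 0.05, against 5 without a filter, 170 by DESeq2, 1 without the library with the fewest genes in each group and 0 to 1 with 1 library left out. The cause of these differences was not tested.

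The median log2 fold change of Rab genes moved to -0.040 (untreated neurons) and 0.031 (fibril-loaded neurons) against microglia alone on total counts without TMM, where the median of all genes at that level moved from -0.03 to 0.07 and from -0.02 to 0.09. Without the library with the fewest genes in each group it was 0.066 for fibril-loaded neurons against microglia alone and 0.12 between the co-cultures. With 1 library left out it ran from -0.23 to -0.08, from -0.16 to 0.02 and from -0.039 to 0.16 in the 3 comparisons, the last 0.16 without the first untreated-neuron library. For single named genes, 956 values under the alternatives kept their side of the threshold, and the 7 that did not were all of Rab20. The labels give no replicate numbers, but the library names end in serial numbers that rise by steps of 7 within each group. They thus fall into 4 sets in which each group keeps its place, and what the sets mark is not said. Chosen after seeing the data, a fit with the set as a replicate block called 0 Rab genes in each comparison, 95, 66 and 0 of all genes, and 1 gene acting on Rabs (Rilpl2, fibril-loaded neurons against microglia alone, edgeR adjusted p = 0.0216). With the block, Rab20 had edgeR adjusted p of 0.0948 and 0.0581 against microglia alone. Over 7536 genes, the deviations from group means correlated at -0.044 to 0.088 in the 10 pairs of libraries of different groups that share a set, and at -0.094 to 0.081 in the 30 that do not. The median was 0.047 in the pairs that share a set and -0.029 in the others. The sets were not used in the main test, so its spread may include differences between them. Of the 10 pairs that share a set, 0 were over 0.1. For 5 of the 11 libraries, the best correlation with a library of another group was within their own set. Such low correlations cannot decide whether the sets are replicates, which the labels do not state.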
